A study of Rattus norvegicus with 12 samples.

Results

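The miR-16 seed family is a set of microRNAs that carry the same seed, the short stretch at the 5′ end that pairs with target messenger RNAs. Its members were taken by name, as rno-miR-16-5p, rno-miR-15b-5p, rno-miR-195-5p and rno-miR-497-5p (written below without the species prefix rno), from the table of mature rat microRNAs, with copies of a name summed. This gave 4 of the 752 mature names, each present in 1 row, so no member was a sum of copies. They were measured by small RNA sequencing of serum in 12 libraries, 3 in each of 4 groups. All groups were male Sprague-Dawley (Jcl:SD) rats aged 7 weeks given oral doses: water as vehicle (ctrl), 180 mg/kg caffeine (CAF), 200 mg/kg dextromethorphan hydrobromide monohydrate (DEX), or both drugs (CAFDEX). When both were given, caffeine came 1 h before dextromethorphan, and blood was drawn 1 h after the second dose. Caffeine is an adenosine receptor antagonist and dextromethorphan is a cough suppressant that blocks NMDA receptors. The design names 5 rats per group, but the labels do not state that every library is 1 animal, and the p-values therefore cover the spread between libraries, which may be technical. Only one sex, age and strain is represented.

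MicroRNAs of this family are known to repress messenger RNAs of cell-cycle regulators, such as cyclins D and E, and of the survival factor BCL2. In the rat coordinates used here the miR-15b and miR-16 loci lie in one cluster and those of miR-497 and miR-195 in another. Each member had 1 locus in the deposited values, and other loci that may give miR-16-5p were not examined. miR-16 is abundant in red blood cells and is often used as a reference in plasma and serum assays, whereas miR-195 and miR-497 are known from heart, muscle and vascular tissue. In serum, a change in the number of source cells and a change in the amount each cell releases cannot be told apart.

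The mature sequences are shown because the 4 names are defined by one stretch of bases and differ beyond it. Sequences are from RefSeq (GRCr8), written 5′ to 3′, and capitals mark the seed, bases 2 to 8.
miR-16-5p: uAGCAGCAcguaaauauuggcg
miR-15b-5p: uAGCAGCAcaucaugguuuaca
miR-195-5p: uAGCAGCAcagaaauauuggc
miR-497-5p: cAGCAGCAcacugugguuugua
miR-322-5p: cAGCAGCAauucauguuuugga
The last of these is not a member by name but has the same seed. Of 693 RefSeq mature rat names 5 had this seed, and all 5 were in the deposited table. For 685 of the 752 listed names a RefSeq sequence was found, so a name without one could not be searched.

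Beyond the seed the 4 members fall into a pair that ends alike and a pair that does not share that end. Over the whole length, seed included, miR-16-5p and miR-195-5p were identical at 19 of 21 positions, and after base 8 at 11 of 13. With positions counted from 1 at the 5′ end and the miR-16-5p base given first, their differences were G10A and U11G. miR-15b-5p and miR-497-5p were identical at 16 of 22 positions, and after base 8 at 9 of 14. The cluster partners were less alike, with 14 of 22 positions identical between miR-16-5p and miR-15b-5p and 12 of 21 between miR-195-5p and miR-497-5p. After base 8 these were 6 of 14 and 5 of 13. The most similar sequences therefore came from different loci. Reads that fit several places were divided in the deposited values, and the counts recovered for miR-497-5p were whole in 12 of 12 libraries, for miR-195-5p in 11 and for miR-16-5p and miR-15b-5p in 8.

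In the coordinates of the files, whose build is rn6 per the submitters' processing notes, miR-15b-5p lay at chr2:165605942-165605963 and miR-16-5p at chr2:165606088-165606109, both on the plus strand, with starts 146 bases apart. In the RefSeq annotation of GRCr8 both lie inside Smc4, which encodes a condensin subunit. Whether they fall in an exon or an intron was not analysed here. miR-497-5p lay at chr10:56844978-56844999 and miR-195-5p at chr10:56845315-56845335, both on the plus strand, with starts 337 bases apart. For this pair the annotation overlapped no gene other than the microRNA genes Mir497 and Mir195.

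The deposited values were FPKM, a length-scaled abundance, here relative to the reads assigned to listed microRNAs. Those reads numbered 1304868 to 2625593 in control libraries, 1504963 to 1842796 after caffeine, 403913 to 895792 after dextromethorphan and 758290 to 1160717 after both. The dextromethorphan libraries DEX3 (403913 reads) and DEX2 (443564 reads) were the shallowest. For a microRNA of 22 bases, 1 read corresponded to 17.3 FPKM at the greatest depth and to 113 FPKM in DEX3. Every dextromethorphan library and every library of both drugs was shallower than every control and every caffeine library. The part of depth in their differences was tested only by leaving out DEX3 and DEX2, which does not address the depth of the combined libraries. DEX2 and DEX3 had the fewest reads of the scarce members, 44 and 54 of miR-195-5p and 19 and 15 of miR-497-5p, while DEX1 had 351 and 76.

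miR-16-5p held nearly all of the family's signal in serum. miR-16-5p, with a mean of 4773903 FPKM over the 12 libraries, was second only to miR-191a-5p (rank 2 of 752 by mean level). miR-15b-5p followed with 32060 FPKM (rank 65), miR-195-5p with 7781 FPKM (rank 119) and miR-497-5p with 2544 FPKM (rank 166). The order of the members on this per-length scale was the same in each of the 12 libraries. miR-16-5p made up 98.79% to 99.28% of the family's summed FPKM, and the family as a whole took 9.08% to 13.1% of reads.

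miR-16-5p took 9.9, 9.54 and 9.5% of reads in the control libraries ctrl1, ctrl3 and ctrl5. It took 9.08, 8.99 and 9.57% in CAF3, CAF4 and CAF5, and 9.95, 12.3 and 11.9% in DEX1, DEX2 and DEX3. After both drugs it took 12.5, 13.0 and 9.71% in CAFDEX2, CAFDEX3 and CAFDEX6. The 4 highest libraries were DEX2, DEX3, CAFDEX2 and CAFDEX3, and the remaining 8 lay within the range from 8.99 to 9.95%. By group mean, caffeine was lowest with 9.21% ± 0.31 (SD, n = 3), followed by control with 9.65% ± 0.219, dextromethorphan with 11.4% ± 1.26 and the combination with 11.8% ± 1.8. The ranges of caffeine and control overlapped, as did those of dextromethorphan and the combination, while DEX1 at 9.95% lay just above the highest control at 9.9%.

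miR-15b-5p, the cluster partner of miR-16-5p, had 29788, 25524 and 25220 FPKM in ctrl1, ctrl3 and ctrl5 and 33846, 29402 and 29418 FPKM in CAF3, CAF4 and CAF5. It had 32856, 43552 and 36011 FPKM in DEX1, DEX2 and DEX3 and 40117, 32040 and 26943 FPKM in CAFDEX2, CAFDEX3 and CAFDEX6. The highest value was that of DEX2 and the lowest that of ctrl5. Means were 26844 ± 2554 FPKM in control (SD, n = 3), 30889 ± 2561 with caffeine, 33033 ± 6643 with both drugs and 37473 ± 5496 after dextromethorphan. Neighbouring groups in this order overlapped.

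miR-195-5p had 3327, 4498 and 4598 FPKM in ctrl1, ctrl3 and ctrl5 and 5832, 10827 and 12688 FPKM in CAF3, CAF4 and CAF5. It had 18659, 4724 and 6366 FPKM in DEX1, DEX2 and DEX3 and 4306, 12622 and 4923 FPKM in CAFDEX2, CAFDEX3 and CAFDEX6. CAF4, CAF5, DEX1 and CAFDEX3 lay well above the controls, and the other 5 treated libraries lay between 4306 and 6366 FPKM, within or nearer to the control range. The means were 4141 ± 707 FPKM in control (SD, n = 3), 7284 ± 4634 after both, 9783 ± 3545 after caffeine and 9916 ± 7616 after dextromethorphan, with overlap between neighbouring groups in this order. The 95% Poisson interval was 16758 to 20716 FPKM in DEX1 and 3432 to 6341 FPKM in DEX2.

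miR-497-5p, the cluster partner of miR-195-5p, had 1447, 1402 and 1533 FPKM in ctrl1, ctrl3 and ctrl5 and 3190, 3996 and 3836 FPKM in CAF3, CAF4 and CAF5. It had 3856, 1947 and 1688 FPKM in DEX1, DEX2 and DEX3 and 2099, 4316 and 1214 FPKM in CAFDEX2, CAFDEX3 and CAFDEX6. All 3 caffeine libraries lay above all 3 controls, and the combined group held both the highest and the lowest of the 12 values. Means were 1461 ± 66 FPKM in control (SD, n = 3), 2497 ± 1184 after dextromethorphan, 2543 ± 1598 after both and 3674 ± 427 after caffeine, and neighbouring groups overlapped apart from dextromethorphan and control. The value of DEX3 rests on 15 reads, with a 95% Poisson interval of 945 to 2784 FPKM. Poisson intervals cover counting error only and treat reads as independent molecules.

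**Figure D1:**
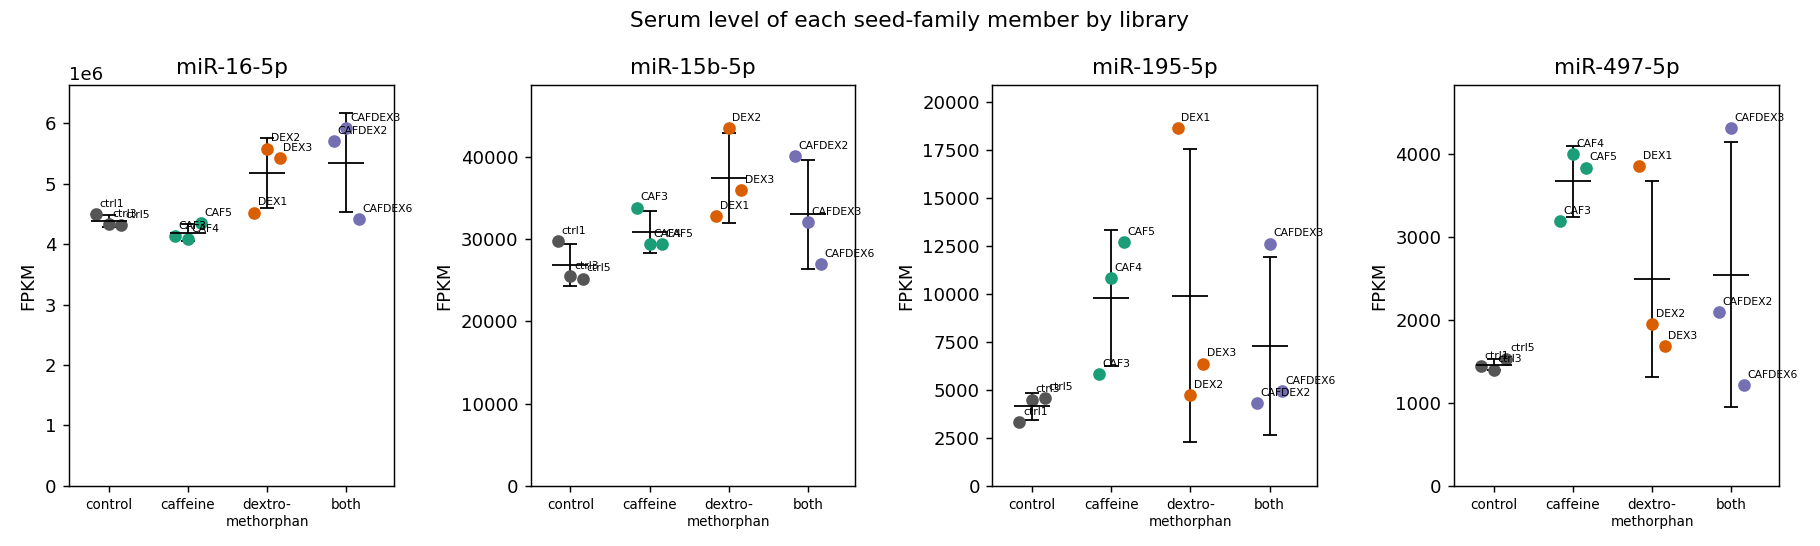
Level of each family member in FPKM (linear vertical axes from 0, a panel per member) in the 12 serum libraries, grouped by treatment; points are libraries, long bars are group means and whiskers are 1 SD. miR-16-5p stays within a 1.45-fold range over all libraries, whereas miR-195-5p spans 5.61-fold with 4 libraries at 10827 FPKM or above.

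The 2 cluster pairs differed in how much they varied. The highest library exceeded the lowest 1.45-fold for miR-16-5p and 1.73-fold for miR-15b-5p, against 5.61-fold for miR-195-5p and 3.56-fold for miR-497-5p. The coefficient of variation over the 12 libraries was 14.1% for miR-16-5p, which was the lowest among the 20 most abundant microRNAs. It was 17.6% for miR-15b-5p, 61.4% for miR-195-5p and 46.9% for miR-497-5p, and the median of the 366 tested microRNAs was 48.0%. Of those tested, 1.37% varied less than miR-16-5p and 4.1% less than miR-15b-5p, while 69.1% varied less than miR-195-5p and 47.5% less than miR-497-5p.

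Against control, caffeine was compared to ask what this drug alone did to the circulating levels, with 3 libraries in each group here as in the comparisons that follow. miR-497-5p and miR-195-5p were each above all controls in all 3 caffeine libraries, but neither passed the test. For miR-497-5p the log2 fold change was 1.30 with an SE of 0.42, or 2.46-fold with a 95% interval of 1.33 to 4.56 (limma adjusted p = 0.063). For miR-195-5p it was 1.17 ± 0.49 (SE), or 2.25-fold with an interval of 1.09 to 4.66 (limma adjusted p = 0.158). miR-15b-5p had 0.20 ± 0.24 (limma adjusted p = 0.664, interval 0.812-fold to 1.63-fold) and miR-16-5p -0.07 ± 0.20 (0.876, 0.714-fold to 1.28-fold). With Benjamini-Hochberg adjustment over 366 microRNAs and a threshold of 0.05, 0 of the 4 members passed, where 7.92% of all tested did. At an unadjusted limma p under 0.05 the count was 2 of 4, against 24.9% of all tested, and voom on the recovered counts passed 1 of 4, where it passed 13.4% of all tested. Groups did not overlap, with caffeine higher, for 2 of 4 members and for 26.0% of all tested. The median log2 fold change of the members was 0.69, and that of all 366 was 0.19.

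With median-of-ratios size factors the median of all tested moved to -0.04, and the log2 fold changes were 1.06 for miR-497-5p and 0.92 for miR-195-5p (limma adjusted p = 0.1 and 0.25). The calls over all microRNAs were 25 higher and 4 lower as deposited, and 12 higher and 7 lower with that scaling.

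The call for the scarce pair depended on which libraries set the spread. In a limma fit of the control and caffeine libraries alone both passed, with an adjusted p of 0.0139 for miR-497-5p and 0.0334 for miR-195-5p, and in that fit 17.8% of all tested passed. Without DEX1, CAFDEX3 or CAFDEX6, which enter this comparison only through the shared spread, the limma adjusted p of miR-497-5p was 0.0398, 0.0341 and 0.0392, where 44, 33 and 32 of all microRNAs passed in place of 29. Without DEX3 and DEX2 together it was 0.0422, where 12.4% of all tested passed.

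After dextromethorphan alone, each of the 4 members was higher than in control in all 3 libraries, and 0 of 4 passed, against 12.0% of all tested. Non-overlap with dextromethorphan higher held for 26.0% of all tested. The log2 fold change was 1.0 ± 0.49 for miR-195-5p (SE), which is 2.0-fold with a 95% interval of 0.97 to 4.14 (limma adjusted p = 0.169). It was 0.66 ± 0.42 for miR-497-5p (1.58-fold, 0.855 to 2.93; limma adjusted p = 0.266). miR-15b-5p stood at 0.47 ± 0.24 (1.39-fold, 0.98 to 1.97; limma adjusted p = 0.171) and miR-16-5p at 0.23 ± 0.20 (1.18-fold, 0.879 to 1.57; 0.412). The members' median of 0.57 was close to the median of 0.47 over all 366 microRNAs. No member had an unadjusted p under 0.05, and voom also passed 0 of 4.

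The common upward shift depended on the scaling. With median-of-ratios size factors the median of all tested fell to 0.11, no member was free of overlap with control, and the log2 fold change of miR-16-5p was -0.18. Over all microRNAs the calls were then 15 higher and 19 lower, against 42 higher and 2 lower as deposited. For miR-195-5p the library DEX1 set the size: without it the log2 fold change was 0.42 (limma adjusted p = 0.544), and that of miR-497-5p was 0.31 (limma adjusted p = 0.636). Without the 2 shallow libraries, which leaves DEX1 alone and assumes that it varies like the other groups, the value of miR-195-5p was 2.18 (limma adjusted p = 0.0411), where 4.95% of all tested passed.

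After both drugs, miR-195-5p and miR-497-5p had log2 fold changes against control of 0.65 ± 0.49 (SE; 95% interval 0.759-fold to 3.24-fold; limma adjusted p = 0.414) and 0.60 ± 0.42 (0.817-fold to 2.8-fold; 0.371). For miR-15b-5p and miR-16-5p they were 0.28 (limma adjusted p = 0.45) and 0.27 (limma adjusted p = 0.389). Of the 4 members 0 passed, against 10.9% of all tested, 0 had an unadjusted p under 0.05, and voom also passed 0. For each member the combined libraries overlapped the controls, where 18.0% of all tested lay wholly above. The members' median was 0.44, and that of all tested was 0.24, or 0.09 with median-of-ratios size factors. The calls over all microRNAs were 24 higher and 16 lower as deposited and 19 higher and 25 lower with those factors. CAFDEX3 held the high values of the scarce pair, and without it the log2 fold changes were 0.17 for miR-195-5p and 0.13 for miR-497-5p (limma adjusted p = 0.888 for each). Without CAFDEX6, which held the lowest miR-497-5p, the value for miR-497-5p was 1.03 (limma adjusted p = 0.107).

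**Figure D2:**
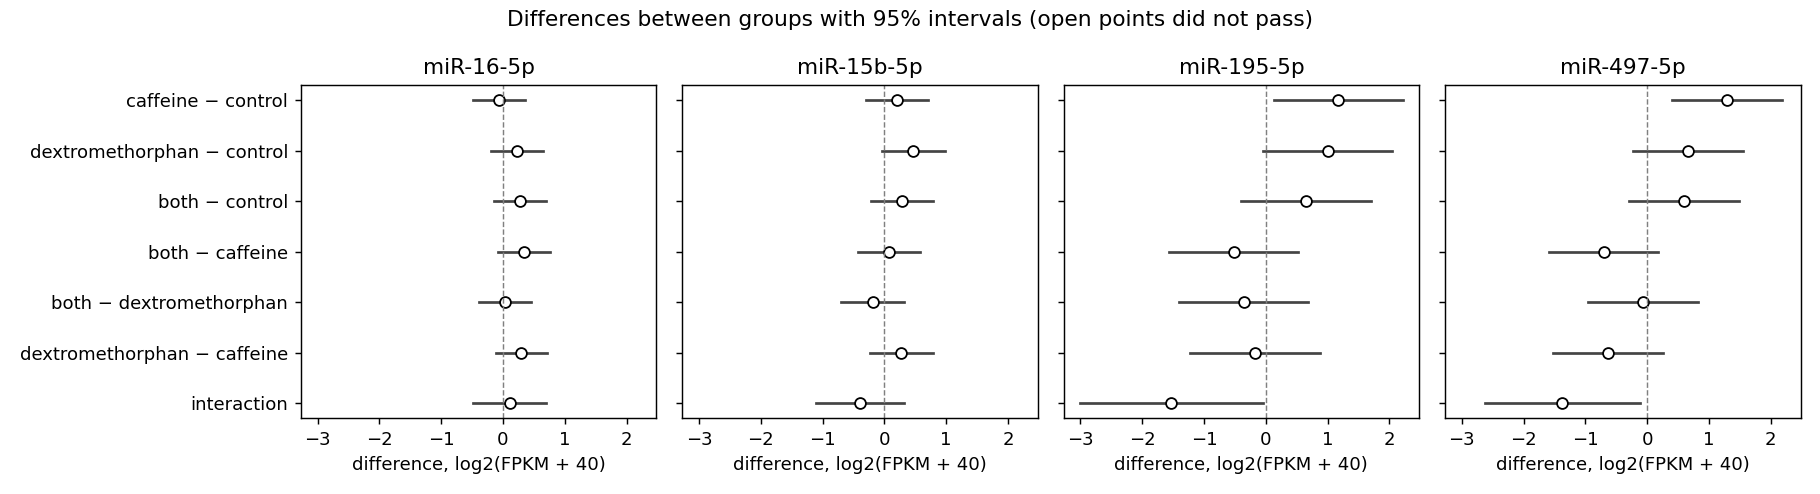
Log2 fold change on the log2(FPKM + 40) scale, with 95% intervals from limma, of the 4 members in the 7 comparisons. Intervals of miR-16-5p and miR-15b-5p include 0 in each comparison, and those of miR-195-5p and miR-497-5p exclude 0 for caffeine against control and for the interaction, before adjustment over 366 microRNAs.

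The treated groups were compared with one another to ask what the second drug added. Between both drugs and caffeine 0 of 4 members passed, where 0.0% of all tested did, and 0 had an unadjusted p under 0.05. miR-16-5p was the 1 member whose groups did not overlap, higher after both by 0.34 ± 0.20 on the log2 scale (SE; limma adjusted p = 0.793), where 3.55% of all tested lay wholly higher. For miR-497-5p the log2 fold change was -0.70 ± 0.42 (limma adjusted p = 0.793) and for miR-195-5p -0.52 ± 0.49 (0.893). Between both drugs and dextromethorphan alone, 0 of 4 passed against 3.55% of all tested, and 0 lay wholly higher against 3.83%, with log2 fold changes from -0.35 for miR-195-5p to 0.04 for miR-16-5p, and 0 had an unadjusted p under 0.05. Between dextromethorphan and caffeine 0 of 4 passed against 2.46%, 0 had an unadjusted p under 0.05, and miR-16-5p again was the 1 member without overlap (0.30 ± 0.20, limma adjusted p = 0.544; 12.3% of all tested lay wholly higher). voom passed 0 of 4 in each of these 3 comparisons. With median-of-ratios scaling miR-16-5p remained wholly higher between both drugs and caffeine (8.2% of all tested), overlapped between dextromethorphan and caffeine (10.7% wholly higher) and was wholly higher between both drugs and dextromethorphan (7.38%).

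The interaction contrast measures how far the combination departed from the sum of the separate effects. The departure was -1.53 ± 0.70 log2 units for miR-195-5p (SE; 95% interval -3.01 to -0.05; limma adjusted p = 0.226). It was -1.37 ± 0.59 for miR-497-5p (-2.62 to -0.11; limma adjusted p = 0.21). miR-15b-5p departed by -0.39 ± 0.34 (limma adjusted p = 0.579) and miR-16-5p by 0.11 ± 0.28 (limma adjusted p = 0.878). No member passed, where 4.64% of all tested did, and voom passed 0 of 4. At an unadjusted p under 0.05 the count was 2 of 4, against 21.3% of all tested. Without CAFDEX3 the departure of miR-497-5p was -1.84 (limma adjusted p = 0.0348), where 38 of all microRNAs passed in place of 17. Without DEX3 and DEX2 that of miR-195-5p was -2.70 (limma adjusted p = 0.0443), where 5.49% of all tested passed. Without DEX1 the departures of the pair were -0.94 for miR-195-5p and -1.01 for miR-497-5p (limma adjusted p = 0.386 and 0.335). The median departure of all tested microRNAs was -0.39 as deposited, 0.10 under median-of-ratios scaling and 0.14 after quantile normalization. The departures of miR-195-5p and miR-497-5p were then -1.03 and -0.88 with the former (limma adjusted p = 0.422 and 0.405) and -0.78 and -0.88 with the latter (limma adjusted p = 0.63 and 0.454).

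Levels of cluster partners varied together across libraries, more than levels of members from different clusters. Over the 12 libraries, which share group and depth, Pearson's r of log2(FPKM + 40) was 0.86 between miR-195-5p and miR-497-5p and 0.70 between miR-16-5p and miR-15b-5p. Taken as departures from the group means, r was 0.82 and 0.70. Between the clusters r was -0.04 for miR-16-5p with miR-195-5p, the pair closest in sequence, 0.01 for miR-16-5p with miR-497-5p, -0.01 for miR-15b-5p with miR-195-5p and 0.21 for miR-15b-5p with miR-497-5p. As departures these were -0.15, 0.27, -0.57 and -0.03 in the same order. With miR-322-5p, encoded on the X chromosome, r was 0.66 for miR-16-5p, 0.67 for miR-15b-5p, 0.58 for miR-195-5p and 0.63 for miR-497-5p. As departures it was 0.76, 0.29, 0.41 and 0.73, so such values were not confined to cluster partners. For miR-195-5p with miR-195-3p, from the same precursor, r was 0.96, and 0.94 as departures. For miR-15b-5p with miR-15b-3p, likewise from the same precursor, it was 0.55, and 0.21 as departures. These correlations are descriptions of 12 libraries.

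**Figure D3:**
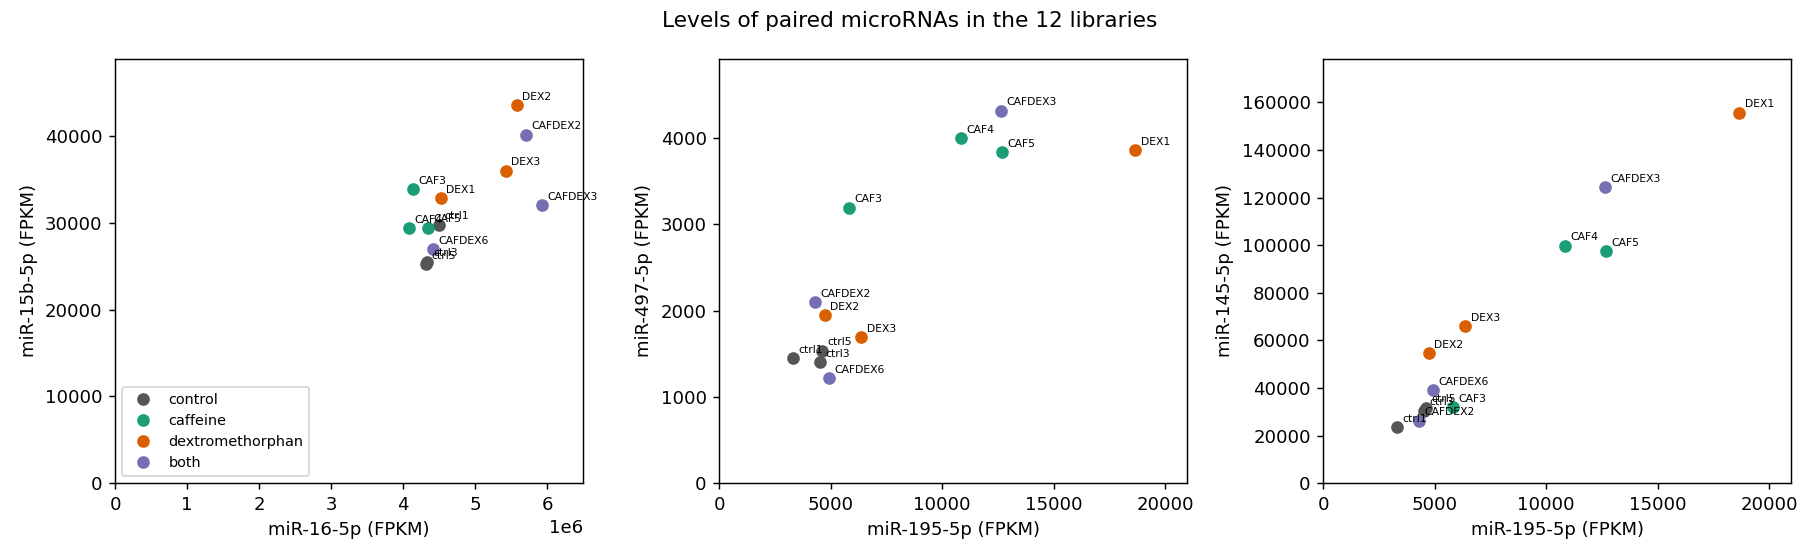
Levels in FPKM on linear axes from 0, 1 point per library coloured by group: miR-15b-5p against miR-16-5p, and miR-497-5p and miR-145-5p against miR-195-5p. CAF4, CAF5, DEX1 and CAFDEX3 stand at the upper right of both miR-195-5p panels, and the other 8 libraries lie at 6366 FPKM of miR-195-5p or below.

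The same 4 libraries, CAF4, CAF5, DEX1 and CAFDEX3, had the highest levels of miR-195-5p, of its passenger strand miR-195-3p and of miR-497-5p. In miR-195-5p the lowest of these 4 stood at 10827 FPKM and the highest of the other 8 at 6366 FPKM. They come from 3 of the treated groups and were neither the deepest nor the shallowest libraries. For miR-16-5p only 1 of these libraries, CAFDEX3, was among its 4 highest, and for miR-15b-5p 0 were.

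By likeness of level over the 12 libraries, the 3 microRNAs nearest to miR-195-5p were miR-195-3p (r = 0.96), miR-125a-5p (0.95) and miR-145-5p (0.95). Those nearest to miR-497-5p were miR-29c-3p (0.89), miR-676 (0.88) and miR-143-5p (0.88). For miR-16-5p they were miR-25-3p (0.85), miR-101a-3p (0.79) and miR-21-5p (0.78), and for miR-15b-5p again miR-25-3p (0.88), then miR-190b-5p (0.87) and miR-93-5p (0.87). The miR-16-5p and miR-15b-5p lists shared miR-25-3p, and neither shared a name with the lists of the other cluster. The lists of miR-195-5p and miR-497-5p shared no name with each other, and no list held the member's cluster partner.

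miR-145-5p, a microRNA of smooth muscle, had 31939, 99848 and 97422 FPKM in CAF3, CAF4 and CAF5, and 155586, 54581 and 66021 FPKM in DEX1, DEX2 and DEX3. It had 26327, 124436 and 38966 FPKM in CAFDEX2, CAFDEX3 and CAFDEX6, and 23561 to 31787 FPKM in controls. Its 4 highest libraries were the same as those of miR-195-5p, to which it was chosen as a near match. Other microRNAs of the vascular wall shared fewer: 3 of the 4 for miR-145-3p and 3 of the 4 for miR-143-3p, with DEX3 in place of 1 of them. The 4 highest libraries of miR-126a-3p were CAFDEX3, DEX2, CAFDEX2 and DEX1. Those of miR-126a-5p were CAFDEX3, DEX2, DEX3 and DEX1, and neither set held CAF4 or CAF5. The 5 microRNAs of the vascular wall list together took 1.04 to 1.07% of reads in control libraries, 0.98 to 1.96% after caffeine, 1.5 to 4.93% after dextromethorphan and 1.01 to 3.47% after both. Of these 5, 0 passed against control after caffeine or dextromethorphan, and 1 (miR-126a-3p) rose after both, where 7.92%, 12.0% and 10.9% of all tested passed. The part of vascular wall RNA in the levels of miR-195-5p and miR-497-5p was not tested.

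miR-451-5p, a microRNA of red blood cells, had 2138, 2415 and 1324 FPKM in ctrl1, ctrl3 and ctrl5, and 2599, 2997 and 3559 FPKM in CAF3, CAF4 and CAF5. It had 4871, 7378 and 8215 FPKM in DEX1, DEX2 and DEX3, and 5072, 4706 and 3015 FPKM in CAFDEX2, CAFDEX3 and CAFDEX6. DEX2 and DEX3, its 2 highest libraries, were also among the 4 highest of miR-16-5p and of miR-15b-5p. Its r with miR-16-5p was 0.73, with miR-15b-5p 0.80, with miR-195-5p 0.29 and with miR-497-5p 0.24. As departures from the group means these were 0.76, 0.52, -0.19 and 0.02. With miR-322-5p and miR-503-5p its r was 0.75 and 0.73, and 0.32 and 0.59 as departures. The 5 listed red-cell microRNAs together took 0.00843 to 0.0114% of reads in control and 0.0112 to 0.0157% with caffeine. They took 0.0188 to 0.0361% with dextromethorphan and 0.0127 to 0.0204% with both drugs. Against control 0 of 5 rose after caffeine, 3 of 5 after dextromethorphan and 1 of 5 after both, and none fell, beside 7.92%, 12.0% and 10.9% of all tested that passed in either direction. miR-451-5p itself rose after dextromethorphan (limma adjusted p = 0.00226), so a fit with its ratio to miR-23a-3p as a covariate cannot tell red-cell RNA and treatment apart. The part of red-cell RNA in the level of miR-16-5p was not tested.

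The other lists are given by their counts. The 4 liver microRNAs took 1.88 to 5.12% of reads in control, 6.93 to 11.1% after caffeine, 6.87 to 15.8% after dextromethorphan and 7.81 to 10.5% after both. Of them 2, 3 and 2 rose after caffeine, dextromethorphan and both. Of 6 leukocyte microRNAs 2, 0 and 3 rose, and of 5 platelet microRNAs 1 rose in each comparison. The lists share names: miR-126a-3p and miR-126a-5p are platelet and vascular wall, and miR-223-3p is platelet and leukocyte. The platelet call after both drugs, miR-126a-3p, is the same result as the vascular wall call. These counts stand beside 7.92%, 12.0% and 10.9% of all tested that passed in the same comparisons. No member of these lists passed as lower against control, and none was at 0 in all 12 libraries. The platelet list took 6.81 to 7.44% of reads in control and 6.08 to 7.29% after caffeine. It took 4.77 to 6.16% after dextromethorphan and 5.89 to 7.73% after both. The leukocyte list took 8.28 to 8.6%, 9.23 to 10.4%, 6.42 to 9.03% and 10.2 to 14.6% in the same order. miR-223-3p, on both lists, lay wholly below control after dextromethorphan (log2 fold change -0.66, limma adjusted p = 0.0572), where 7.1% of all tested did. The part of these lists in the family's levels was not tested.

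Ratios between members do not depend on the scaling of a library. In control libraries miR-15b-5p stood to miR-16-5p at a log2 ratio of -7.36 ± 0.10 (SD over 3 libraries). It was -7.35 ± 0.19 in the combined group, -7.11 ± 0.12 after dextromethorphan and -7.09 ± 0.14 for caffeine. The caffeine libraries lay wholly above control, but narrowly, with CAF5 at -7.21 and ctrl1 at -7.24. Their exact permutation p was 0.1, the smallest that 3 against 3 allows. The dextromethorphan libraries lay wholly above control only nominally, with the same p. DEX3 and ctrl1 were both at -7.24 to 2 decimals, and the value of DEX3 rests on 320 reads of miR-15b-5p. Over the 4 groups the exact permutation p was 0.0951 (adjusted 0.381 over 4 ratios).

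The ratio of miR-195-5p to miR-16-5p, whose log2 was -10.06 ± 0.29 in control (SD over 3 libraries), stood at -9.68 ± 0.76 in the combined group, -9.29 ± 1.21 after dextromethorphan and -8.82 ± 0.57 for caffeine. Caffeine lay wholly above control (difference 1.25, exact permutation p = 0.1). Over the 4 groups the exact permutation p was 0.29 (adjusted 0.58), and without DEX3 and DEX2 it was 0.0493 (adjusted 0.197). The log2 ratio of miR-497-5p to miR-195-5p, the partners on chromosome 10, was lowest with dextromethorphan (-1.82 ± 0.50, SD), then -1.53 ± 0.49 with both drugs, -1.49 ± 0.25 in control and -1.34 ± 0.44 with caffeine (exact permutation p = 0.602, adjusted 0.803). All pairs of groups overlapped in this ratio.

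Seen as shares, the 3 scarcer members held 0.719 to 0.762% of the family's FPKM in control libraries and 1.03 to 1.07% after caffeine. After dextromethorphan they held 0.805 to 1.21% and after both 0.744 to 0.82%. The caffeine and the dextromethorphan libraries lay above each control. The share is set by the same values as the ratios, so the same limit holds, and is given as a description.

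**Figure D4:**
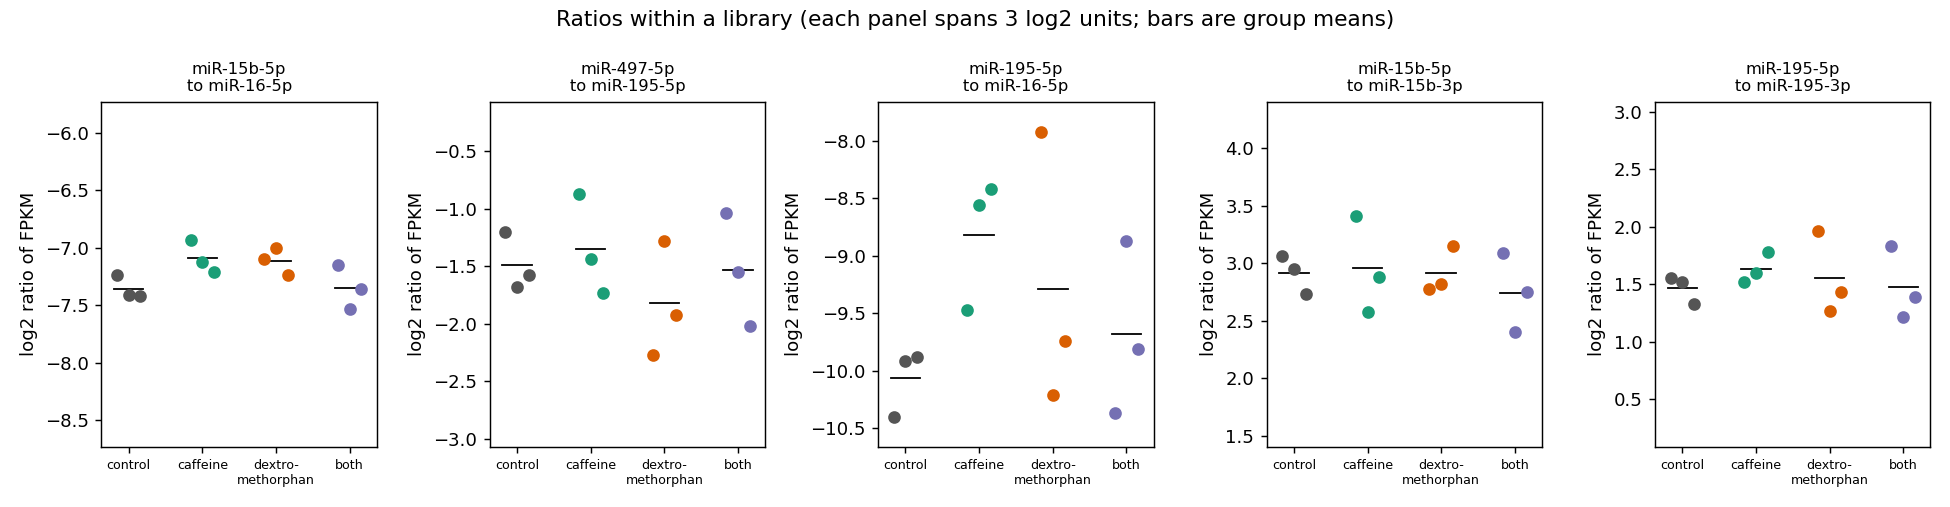
Log2 ratios of FPKM between family members and between the 2 arms of miR-15b and of miR-195, 1 point per library with group means as bars; each panel spans 3 log2 units. The ratios of miR-15b-5p and of miR-195-5p to miR-16-5p lie wholly above control after caffeine, the former only narrowly (CAF5 at -7.21, ctrl1 at -7.24). That of miR-497-5p to miR-195-5p overlaps between all groups. The share of all tested microRNAs whose ratio to miR-16-5p lies wholly above control was not computed.

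Each hairpin precursor can give a second product from its other arm, the passenger strand. The hairpins of miR-16 and miR-195 are shown because their arms were detected so differently; both are from RefSeq (GRCr8), 5′ to 3′, with the 5p and then the 3p arm in capitals.
Mir16: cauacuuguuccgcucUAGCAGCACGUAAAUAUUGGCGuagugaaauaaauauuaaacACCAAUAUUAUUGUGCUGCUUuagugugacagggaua
Mir195: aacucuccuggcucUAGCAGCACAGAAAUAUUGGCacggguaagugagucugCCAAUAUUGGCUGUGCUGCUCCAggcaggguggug
miR-16-3p was at 0 in 9 of 12 libraries and reached 3 reads in ctrl1, where miR-16-5p had 208297 reads. A count of 0 allows a share of up to 0.000114% of reads in the deepest library and 0.000743% in the shallowest, counting error alone. The other arm of miR-195 was within a few-fold of its partner: the log2 ratio of miR-195-5p to miR-195-3p was 1.46 ± 0.12 in control (SD over 3 libraries), 1.48 ± 0.32 with both drugs, 1.55 ± 0.36 with dextromethorphan and 1.63 ± 0.13 with caffeine.

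miR-195-3p had 1136, 1573 and 1833 FPKM in the controls, 2034, 3563 and 3698 FPKM after caffeine, 4805, 1960 and 2368 FPKM in DEX1, DEX2 and DEX3, and 1213, 5447 and 1873 FPKM in CAFDEX2, CAFDEX3 and CAFDEX6. Its high libraries were those of miR-195-5p. Its log2 fold change against control was 0.99 after caffeine (limma adjusted p = 0.225), 0.91 after dextromethorphan (0.195) and 0.63 after both (0.424). miR-15b-3p ranged from 3190 FPKM in CAF3 to 6149 FPKM in DEX2, and the log2 ratio of miR-15b-5p to it was 2.75 ± 0.34 with both drugs (SD), 2.91 ± 0.17 in control, 2.92 ± 0.20 with dextromethorphan and 2.96 ± 0.42 with caffeine (exact permutation p = 0.825). miR-497-3p never exceeded 3 reads and was at 0 in 3 libraries. Thus 2 of the 4 passenger strands could be tested, and 0 passed in any of the 7 comparisons.

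miR-322-5p, the fifth rat microRNA with this seed, is known as the rodent counterpart of human miR-424 and is encoded on the X chromosome near miR-503. It had 16935, 15390 and 21040 FPKM in ctrl1, ctrl3 and ctrl5, 24986, 26582 and 28874 FPKM after caffeine, 35756, 41605 and 39050 FPKM after dextromethorphan, and 26846, 48255 and 15547 FPKM in CAFDEX2, CAFDEX3 and CAFDEX6. All caffeine and all dextromethorphan libraries lay above the controls, as in 26.0% of all tested microRNAs for each drug. The dextromethorphan libraries also lay above the caffeine ones, as in 12.3% of all tested. It rose after dextromethorphan, 2.19-fold (95% interval 1.35 to 3.55; limma adjusted p = 0.037). The log2 fold change was 0.60 after caffeine (limma adjusted p = 0.264) and 0.62 after both (0.224). The rise did not pass with median-of-ratios scaling (log2 fold change 0.72, limma adjusted p = 0.0989), quantile normalization (0.83, 0.0856), the sum taken without miR-191a-5p (0.86, 0.0854), the red-cell covariate (0.62, 0.9), no filter (1.13, 0.0581), no trend (1.13, 0.07) or without DEX2 and DEX3 together (1.02, 0.209). Without ctrl1, ctrl3, CAF5, DEX2, DEX3 or CAFDEX2 the limma adjusted p was 0.107, 0.142, 0.0552, 0.0804, 0.12 and 0.0532. Whether it differs from the change of the 4 members was not tested.

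microRNAs with a related 5′ end were taken as a further list: miR-322-5p, its passenger miR-322-3p, miR-503-5p, whose seed differs, and miR-103-3p and miR-107-3p, which carry the same 7 letters 1 base earlier.
miR-503-5p: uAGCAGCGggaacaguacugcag
miR-103-3p: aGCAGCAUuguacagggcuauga
miR-107-3p: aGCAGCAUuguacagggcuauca
Against control 1 of these 5, miR-322-5p, rose after dextromethorphan, where 12.0% of all tested passed. After caffeine or both 0 passed, beside 7.92% and 10.9% of all tested. miR-103-3p had a log2 fold change of -0.54 after caffeine (limma adjusted p = 0.15) and -0.63 after both (0.0787), and miR-503-5p of 0.55 after dextromethorphan (0.171). The sequences of miR-103-3p and miR-107-3p are nearly identical, and their recovered counts were whole in only 1 of 12 libraries each, so reads divided between places enter both values.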

How the data were processed

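The authors deposited FPKM per mature microRNA, 836 rows for 752 names, with 1 column per library. The submitters' processing notes list build rn6, DESeq2 1.20.0, Subread 2.0.1, featureCounts, STAR 2.7.10a and cutadapt 3.7, with no role for each. Per the labels' protocols, RNA came from 200 uL of serum (miRNeasy Micro) and libraries from the QIAseq miRNA kit, which adds molecular indices; no source used here says whether these collapsed duplicates. Within every column FPKM times length summed to 1 constant, so a rise of an abundant microRNA lowers the others. Fractional counts in steps of 0.01, recovered from the FPKM, gave the library totals and the Poisson intervals. Library names follow the column names, whose numbers differ from those in the sample titles.

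Copies of a name were summed. Names with a mean under 80 FPKM, or above 0 in fewer than 3 libraries, were not tested; 366 microRNAs remained. limma 3.58.1 in R 4.3.3 was fitted to log2(FPKM + 40) with 4 group means and a mean-variance trend (8 residual and 7.58 prior degrees of freedom), two-sided, with Benjamini-Hochberg adjustment over the 366 and a threshold of 0.05. The pseudocount of 40 FPKM, set from the 10th percentile of values above 0 in a typical library, understates changes of scarce microRNAs. Ratios were tested by two-sided exact permutation over 369600 assignments of the 12 libraries; that of miR-16-5p to miR-16-3p was not tested, since the latter was at 0 in 9 libraries, and the arm ratio of miR-195 is a description added after its values were seen. The limma fit, but not the permutation test, was checked on simulated data in which every microRNA had the same spread, unlike the real data. Named microRNAs were the members, their passenger strands, others with the same or a related seed, the 3 nearest to each member by Pearson's r among those above the median level, and passing members of cell and tissue lists; others were named after their values were seen. Members and lists were chosen with earlier results of these data known. Python 3.11.15 (pandas 2.3.3, numpy 2.4.6, matplotlib 3.10.9) was used for tables and plots.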

Additional observations from a re-analysis of the deposited data

How the results depend on the processing

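The 4 members were refitted with limma under 13 alternatives (pseudocount, filter, scaling, groups fitted, trend, voom on recovered counts, the red-cell ratio as a covariate, shallow libraries left out, rows tested singly) and with each of the 12 libraries left out. Of 696 recomputed values 657 kept their direction and their side of the threshold, 10 newly passed and 29 changed sign, none of them passing in either fit. The cause was not tested for any. The interaction has no fit of the groups compared alone, since it uses all 4.

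The number of members passing for caffeine against control was 2 in a fit of the 2 groups alone (17.8% of all tested passed), 1 with voom (13.4%), 1 without DEX3 and DEX2 (12.4%), and 0 to 1 with each library left out, against 0 as reported (7.92%). Without DEX3 and DEX2 it was 1 for dextromethorphan against control (4.95%) and 1 for the interaction (5.49%), which ranged from 0 to 1 with each library left out. With median-of-ratios scaling, signs changed for miR-15b-5p after caffeine (-0.05), miR-16-5p after dextromethorphan (-0.18), miR-15b-5p and miR-497-5p between both drugs and dextromethorphan (0.06 and 0.17) and miR-15b-5p in the interaction (0.1). With quantile normalization they changed for miR-16-5p after dextromethorphan (-0.16) and after both (-0.16), for miR-15b-5p, miR-195-5p and miR-497-5p between both and dextromethorphan (0.17, 0.08 and 0.11) and for miR-15b-5p in the interaction (0.03). Without miR-191a-5p in the sum they changed for miR-16-5p after dextromethorphan (-0.04) and miR-15b-5p between both and caffeine (-0.03). With the red-cell covariate, whose miR-451-5p itself rose after dextromethorphan and after both drugs, they changed for miR-16-5p after dextromethorphan (-0.19) and after both (-0.07), miR-15b-5p between both and caffeine (-0.06) and miR-195-5p between dextromethorphan and caffeine (0.39). Without DEX3 and DEX2 the last was 1.0, and that of miR-497-5p 0.08. With each library left out, miR-195-5p ranged from -0.76 to 0.23 between dextromethorphan and caffeine. Between both drugs and dextromethorphan miR-16-5p ranged from -0.05 to 0.17, miR-195-5p from -0.84 to 0.23 and miR-497-5p from -0.54 to 0.36. Between both drugs and caffeine miR-15b-5p ranged from -0.07 to 0.22.

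The absence of overlap with control under median-of-ratios scaling was examined after seeing the data: 0 of 4 members lay wholly above control after dextromethorphan (12.3% of all tested did), and after caffeine 1 lay wholly above (miR-497-5p, 18.6%) and 1 wholly below (miR-16-5p, 20.5%). The counts over all tested microRNAs with each library left out were 4 to 44 for caffeine, 12 to 74 for dextromethorphan and 4 to 56 for both drugs against control, with 29, 44 and 40 as reported. Over the other alternatives they were 5 to 65, 1 to 50 and 1 to 60. The shallow dextromethorphan libraries limit miR-497-5p most, with 15 reads in DEX3. No paired analysis was possible because the column numbers do not match the replicate numbers in the sample titles.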
